A study of Saccharomyces cerevisiae with 6 samples.

Results

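The genes described here are 9 genes of homologous recombination and DNA crosslink repair in Saccharomyces cerevisiae (budding yeast): MRE11, RAD52, RAD59, RAD55, RAD57, RAD54, RDH54, SRS2 and PSO2. They were chosen by name, as every probe set whose only gene symbol in the platform annotation is one of these. The array holds 14 such probe sets out of 9335, and the annotation names 5656 single genes in all. SRS2 has 6 probe sets and each of the other 8 genes has 1. The brightest probe set over the 6 arrays stands for SRS2.

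Transcripts were measured on 6 Affymetrix arrays from cultures grown in YPD at 30 °C, with azinomycin B present or absent for 6 h after they had reached an optical density of 1.0. There were 2 arrays at 100 µg/ml, with the labels A100 and B100, 1 array at 10 µg/ml, with the label 10, and 3 arrays of cultures without the drug, 1 for each label. The labels name ethanol as the carrier in the treated cultures and do not mention it for the controls, and they give a median effective dose of 10 µg/ml. They do not name a strain, and nothing in them tells whether arrays of a group are separate cultures. The p-values therefore reflect the spread between these samples only. The study asked how the stress response at each dose compared with control growth. The RNA is from whole cultures, where fewer cells making a transcript and less of it per cell cannot be told apart.

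Azinomycin B is a natural product that links the strands of DNA to each other through alkylation of purines. Yeast removes such crosslinks by incision and trimming of the DNA, and then mends the resulting breaks by homologous recombination, in which an intact copy serves as the template. Broken ends are first trimmed to single strands, which are coated by replication protein A; mediator proteins then load the strand exchange protein, translocases help it to find and invade the template, and anti-recombination helicases take it off again. Several of these genes are also known to be transcribed mostly as cells enter DNA replication.

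HUG1 and DUN1, genes known to respond to DNA damage, had higher signals on every treated array than on any control. HUG1, whose small protein restrains ribonucleotide reductase after damage, had signals of 4369.7 and 477.2 on the 100 µg/ml arrays and 1109.8 on the 10 µg/ml array, against 42.7, 36.1 and 52.1 in the controls A100, B100 and 10. The kinase gene DUN1 had 354.2 and 196.1 on the 100 µg/ml arrays and 187.3 on the 10 µg/ml array, against 87, 54.3 and 102.8. RNR3, a damage-inducible gene of ribonucleotide reductase, had 477.9 and 146.5 on the 100 µg/ml arrays and 155.6 on the 10 µg/ml array. Its controls A100, B100 and 10 had 50.3, 103.8 and 53.6, so every treated array was above every control. Another gene of that enzyme, RNR2, described below for its likeness to SRS2, was higher than its control in the 100 µg/ml pairs. In the pair labelled 10 it was lower (2052.5 against 3324.0). Some arrays stood apart from others, and the cause was not tested. The control with the label 10 differed at least 2-fold from the A100 control at 1370 of the 6956 probe sets tested and from the B100 control at 1350, while those 2 controls differed from each other at 176. The treated A100 array differed at least 2-fold from its control at 1167 probe sets, the treated B100 array from its own at 189 and the 10 µg/ml array from its own at 313. The treated A100 and B100 arrays, both at 100 µg/ml, differed at least 2-fold from each other at 865. The actin gene ACT1 has probe sets at either end, and its 3′ over 5′ signal, a measure of RNA integrity, was 2.09, 1.44 and 1.78 on the treated arrays A100, B100 and 10, against 1.69, 2.05 and 1.85 on their controls. Probe sets for 19 bacterial and mouse sequences gave signals of at most 25, with medians of 2.30 to 3.90 by array. The value of 25 thus marks the upper edge of background.

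No member passed the test in any comparison. At 100 µg/ml against all 3 controls, 0 of the 8 members above the low-signal filter passed at an adjusted p of 0.05 (limma with Benjamini-Hochberg adjustment), where 0% of the 6956 probe sets tested passed and 232 had an unadjusted p under 0.05. The counts were likewise 0% for both doses together against control, with 218 probe sets at an unadjusted p under 0.05, 0% for 10 µg/ml against control, with 291, and 0% for the difference between the doses, with 234. These counts of unadjusted p-values moved with single arrays. The 232 became 30 without the treated A100 array, 679 without the treated B100 array, 113 without the B100 control and 425 without the control labelled 10. The 218 became 81, 529, 102 and 576 without the same arrays, and 97 without the A100 control. The 291 became 1603 without the control labelled 10, 101 without the A100 control and 135 without the B100 control. The values below are therefore a description of these 6 arrays. All differences are on the scale of log2(signal + 16), which understates the change of dim genes, and RAD55, whose mean was under the filter at a signal of about 31.7, was not tested.

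**Figure D1:**
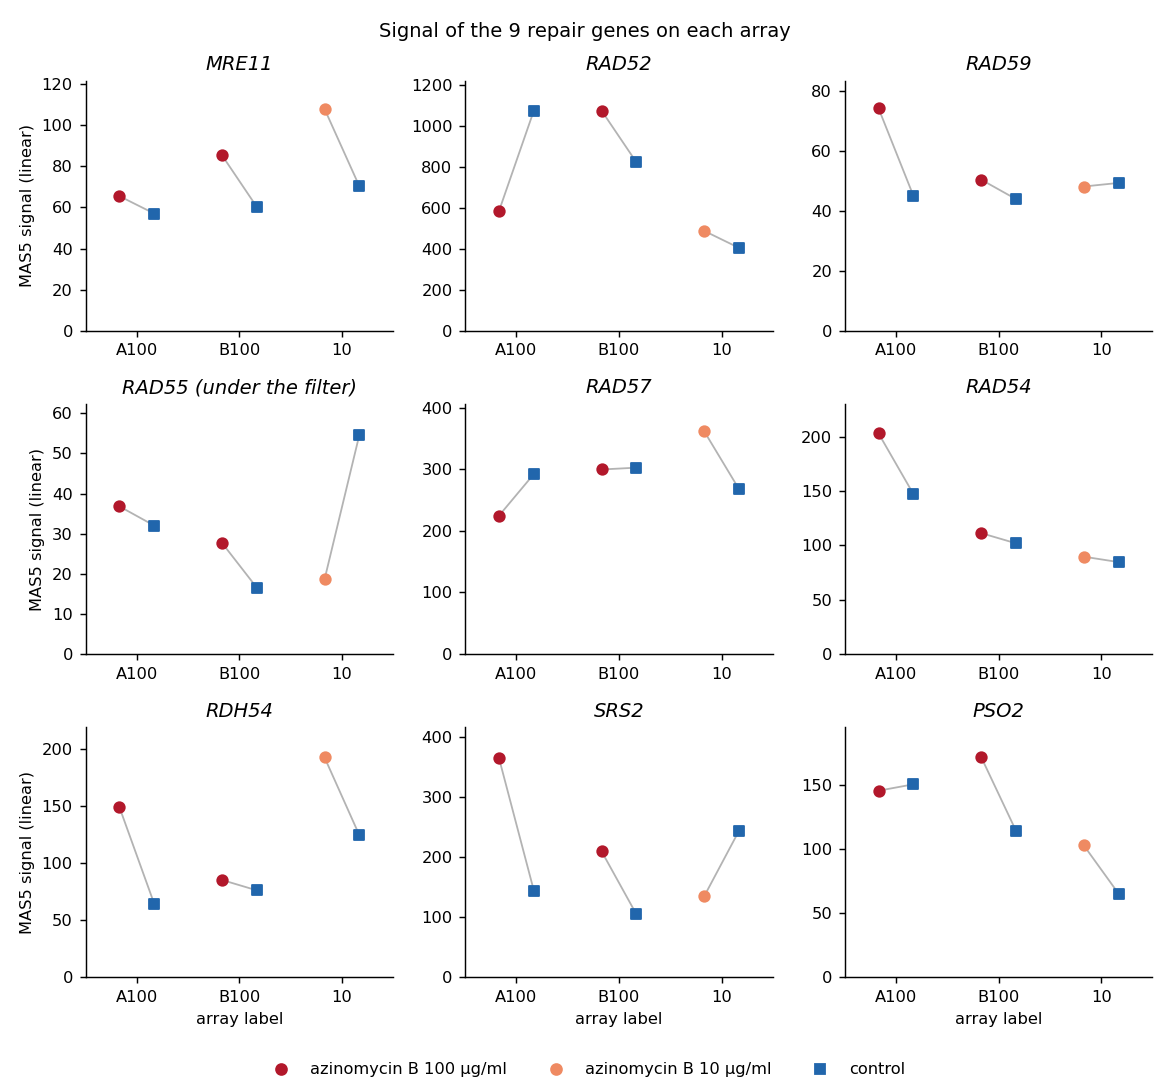
Signal of each gene on each array, 1 panel a gene, with the array label on the horizontal axis and the linear MAS5 signal, starting at 0, on the vertical axis. Circles are treated arrays, squares are controls and a grey line joins the arrays of 1 label. SRS2 and RDH54 have their widest gaps in the A100 pair, and RAD52 is lower on the treated A100 array (583.6) than on its control (1074.0).

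Of the 8 tested genes, 5 were higher on the treated A100 array than on its control, 7 in the B100 pair and 6 in the pair labelled 10, where 51.6%, 56.7% and 57.9% of all probe sets tested were higher. The median log2 differences of the 8 genes were 0.29, 0.26 and 0.34, and those of all probe sets 0.03, 0.06 and 0.08. MRE11, RAD54 and RDH54 were higher in all 3 pairs, which held for 22% of all probe sets tested, and no member was lower in all 3, which held for 12.2%. This count depends on the scaling: with every array brought to the same median it was 0, against 11.2% of all probe sets, and with quantile normalization it was 2, against 15.8%. Setting arrays to a common median moved the median of all tested probe sets by -0.20, -0.15 and -0.14 in the A100, B100 and 10 pairs, so differences smaller than these have no settled sign.

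**Figure D2:**
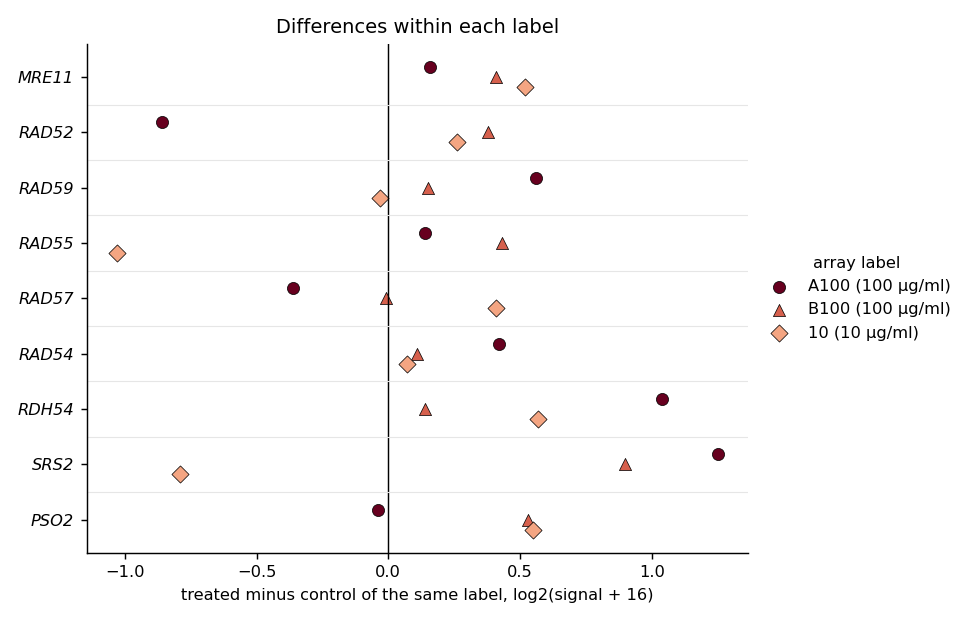
Difference between the treated array and the control of the same label for each gene, in log2(signal + 16), with a circle for A100, a triangle for B100 and a diamond for the label 10; RAD55 is near background. Each point is 1 array minus 1 array and has no error of its own. MRE11, RAD54 and RDH54 have all 3 points right of 0, and SRS2 has its points at 100 µg/ml (1.25 and 0.90) far from that at 10 µg/ml (-0.79).

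Both 100 µg/ml arrays lay above all 3 controls for 1 of the 8 tested members, RAD59, against 12.3% of all probe sets tested, and below all 3 for 0 of the 8, against 7.58%. Against the A100 and B100 controls alone they lay above for 4, MRE11, RAD59, RDH54 and SRS2, against 26.1% of all probe sets. No member had all 3 treated arrays above all 3 controls, which held for 6.04% of all probe sets. The median log2 fold change of the 8 tested members at 100 µg/ml was 0.34 against all 3 controls and 0.28 against the A100 and B100 controls, and 7 and 6 of the 8 were positive. Over all probe sets tested the medians were 0.05 and 0.05, and 56.2% and 54.8% were positive. With arrays at a common median 41.5% of all probe sets were positive against all 3 controls, and 7 of the 8 members were. Of these, RAD52 was at only 0.02 and MRE11 at only 0.08 there. Against the A100 and B100 controls, without that scaling, RAD52 was at -0.24.

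The first step of recombination is the trimming of broken ends, which MRE11, a nuclease, carries out in a complex with the products of RAD50 and XRS2. MRE11 (probe set 9406_at) had signals of 65.5 and 85.4 on the 100 µg/ml arrays and 107.9 on the 10 µg/ml array, against 57, 60.2 and 70.2 in the controls A100, B100 and 10. The 10 µg/ml and the treated B100 arrays were above every control, and the treated A100 array was under the control labelled 10. It averaged 86.3 ± 21.2 on the treated arrays and 62.5 ± 6.89 on the controls (SD, n = 3 each). For both doses together the log2 fold change was 0.36 with an SE of 0.248 (limma adjusted p = 0.96), the 95% interval being -0.21 to 0.94. The differences within the labels A100, B100 and 10 were 0.16, 0.41 and 0.52, the first of which was -0.04 with arrays at a common median.

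Neither partner of MRE11 was higher in all 3 pairs. RAD50, an ATPase of the same complex, had 115.4 and 78.9 on the 100 µg/ml arrays and 93.4 on the 10 µg/ml array, against 115.9, 144.2 and 99 in the controls on its brightest probe set. It was lower in all 3 pairs, at -0.01, -0.76 and -0.07. XRS2, the subunit that binds the checkpoint kinase, had 47.6 and 44.5 on the 100 µg/ml arrays and 45.8 on the 10 µg/ml array, against 47.7, 28.9 and 56.6. Every treated array lay within the range of the controls for XRS2. The log2 fold changes of RAD50 and XRS2 at 100 µg/ml were -0.27 and 0.07, and neither passed.

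RAD52, the mediator that loads the strand exchange protein on coated single strands and also anneals complementary strands, was the tested member that differed most between controls. Its signals were 583.6 and 1074.5 on the 100 µg/ml arrays and 487.3 on the 10 µg/ml array, against 1074.0, 822.2 and 404.4 in the controls A100, B100 and 10. The highest control was 2.66 times the lowest, and the control labelled 10 was 1.19 lower (log2, a difference of -1.19) than the mean of the other controls. The treated A100 array was lower than its control by a log2 difference of -0.86, while the B100 and 10 pairs were at 0.38 and 0.26. Its log2 fold change at 100 µg/ml was 0.15 with an SE of 0.488 (limma adjusted p = 0.989) against all 3 controls. Against the A100 and B100 controls alone it was -0.24 with an SE of 0.357 (adjusted p = 0.794), so the sign turned with the choice of controls.

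RAD59 encodes a smaller relative of the RAD52 product that takes part in strand annealing. It had signals of 74.2 and 50.4 on the 100 µg/ml arrays and 48.1 on the 10 µg/ml array, against 45, 43.9 and 49.3 in the controls. The controls were close together (46.1 ± 2.85, SD, n = 3), and both 100 µg/ml arrays lay above them, the treated B100 array by little. The 10 µg/ml array lay among the controls. The log2 fold change at 100 µg/ml was 0.32 (SE 0.265, limma adjusted p = 0.957), and 0.10 when the treated A100 array was dropped.

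RAD55 and RAD57 encode the partners of a heterodimer that stabilises the filament of the strand exchange protein. RAD57 had 224.5 and 299.7 on the 100 µg/ml arrays and 362.0 on the 10 µg/ml array, against 292.3, 302.7 and 267.8 in the controls. The controls spanned a narrow range (287.6 ± 17.9, SD, n = 3); the treated A100 array lay below it, the 10 µg/ml array above it and the treated B100 array inside it. The log2 fold change of RAD57 at 100 µg/ml was -0.14 (SE 0.269, limma adjusted p = 0.979). The test of 100 against 10 µg/ml, each set against the controls of its own labels, gave -0.60 (SE 0.438, adjusted p = 0.966).

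RAD55 was the dimmest member. It had 36.8 and 27.7 on the 100 µg/ml arrays and 18.6 on the 10 µg/ml array, against 32, 16.5 and 54.7 in the controls. The highest control was 3.32 times the lowest, and the lowest signals of the gene were under the 25 that the brightest bacterial or mouse sequence reached. Its order across arrays therefore cannot be read.

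RAD54 and RDH54 encode related DNA translocases of the Swi2/Snf2 family, which help the strand exchange filament to open the template and remodel the joint. RAD54 had 203.2 and 111.3 on the 100 µg/ml arrays and 89.6 on the 10 µg/ml array, against 147.3, 101.9 and 84.6 in the controls. Only the treated A100 array was above every control, and in each label the treated array was the higher, by 0.42, 0.11 and 0.07 for A100, B100 and 10. With arrays at a common median these differences were 0.23, -0.04 and -0.07, so the sign in the B100 and 10 pairs is not settled. The level of the control differed more between labels (1.74 times from lowest to highest) than the treated array differed from its control (1.38 times at most). The log2 fold change of RAD54 at 100 µg/ml was 0.42 with an SE of 0.361 (limma adjusted p = 0.957). Dropping the treated A100 array gave 0.03, and it was 0.27 against the A100 and B100 controls.

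RDH54 had 148.8 and 85 on the 100 µg/ml arrays and 192.2 on the 10 µg/ml array, against 64.1, 75.9 and 124.0 in the controls. The treated A100 and the 10 µg/ml arrays were above every control, and the treated B100 array was under the control labelled 10. Within the labels A100, B100 and 10 the treated signal was 2.32, 1.12 and 1.55 times that of the control, or 1.04, 0.14 and 0.57 on the log2 scale. The B100 difference was -0.01 with arrays at a common median. For both doses together the log2 fold change was 0.58 (SE 0.354, limma adjusted p = 0.96), and the interval of -0.24 to 1.41 included 0. At 10 µg/ml against all 3 controls it was 1.04 (SE 0.465, adjusted p = 0.761), and 0.57 against the control labelled 10. Leaving out the treated A100 array took the value at 100 µg/ml against all 3 controls to -0.00, where it was 0.35 with it.

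SRS2 encodes the helicase that strips the strand exchange protein from single strands, and with all arrays its log2 fold change at 100 µg/ml was the largest among the tested members. Its brightest probe set (11110_at) had 365.0 and 209.6 on the 100 µg/ml arrays and 134.4 on the 10 µg/ml array, against 144.2, 104.6 and 243.7 in the controls A100, B100 and 10. The 100 µg/ml arrays were 2.53 and 2.0 times their controls, while the 10 µg/ml array was 0.55 times its control. The control labelled 10 was higher than the treated B100 array. The log2 fold change at 100 µg/ml was 0.78 with an SE of 0.42 (limma adjusted p = 0.957) against all 3 controls. With each array left out in turn it ranged from 0.40, without the treated A100 array, to 1.15, without the treated B100 array. It was under that of PSO2 without the treated A100 array (0.40 against 0.64), without the B100 control (0.52 against 0.58) and without the A100 control (0.73 against 0.76). Against the A100 and B100 controls it was 1.08 with an SE of 0.344 and an interval of 0.22 to 1.93, which is an unadjusted p of 0.0225 and an adjusted p of 0.636 by limma. SRS2 was the only tested member with an unadjusted p under 0.05 there, where 6.11% of all probe sets had one.

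The same probe set also gave the widest gap between the doses. The effect at 100 µg/ml minus that at 10 µg/ml, each against the controls of its own labels, was 1.86 with an SE of 0.595 (limma unadjusted p = 0.0225, adjusted p = 0.966). The interval of this difference was 0.38 to 3.35. It rests on 1 treated and 1 control array at the lower dose, and 3.36% of all probe sets had an unadjusted p under 0.05 in this test.

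The SRS2 probe sets differed among themselves at 10 µg/ml. Of the 6, 3 were above the filter. Probe set 3057_s_at had 78.8 and 37.6 on the 100 µg/ml arrays and 64.1 on the 10 µg/ml array, against 19.5, 18.2 and 39.8 in the controls, or 1.42, 0.65 and 0.52 higher (log2) in the A100, B100 and 10 pairs. Probe set 3058_s_at had 82.4 and 42.2 on the 100 µg/ml arrays and 102.5 on the 10 µg/ml array, against 21, 29.9 and 46.6, or 1.41, 0.34 and 0.92 higher. All 3 probe sets were higher at 100 µg/ml than the A100 and B100 controls, with log2 fold changes of 1.08, 1.03 and 0.88 in that comparison. By limma their unadjusted p-values there were 0.0225, 0.0283 and 0.048, with an adjusted p of 0.636 for each. Of all probe sets tested, 6.11% had an unadjusted p under 0.05 there. For both doses together against all 3 controls the 3 SRS2 probe sets were at 0.46, 0.86 and 0.89 (limma unadjusted p = 0.318, 0.0275 and 0.0333, adjusted p = 0.96 for each). In that test 218 of the 6956 probe sets had an unadjusted p under 0.05, and 0 members did by their brightest probe set. The SRS2 probe sets disagreed at 10 µg/ml, where the brightest was at -0.79 and the other 2 above the filter were at 0.52 and 0.92. The gap between the doses was likewise 1.86 for the brightest, but 0.51 for 3057_s_at and -0.04 for 3058_s_at. The suffix s is a mark of the array design for probes that can match more than 1 transcript, and these probe sets are the dimmer ones. The remaining 3 probe sets had signals of 1.5 to 43.2, mostly under the upper edge of background, and were not tested. One of them, 3055_g_at, had 20.7 and 21.3 on the 100 µg/ml arrays and 16.6 on the 10 µg/ml array, against 2.3, 7.9 and 43.2 in the controls. It was thus lower than its control in the pair labelled 10, like the brightest probe set, and higher in the others. The remaining pair, 3054_at and 3056_s_at, were higher than the control in the pair labelled 10 (0.19 and 0.57) and had opposite signs in each 100 µg/ml pair.

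**Figure D3:**
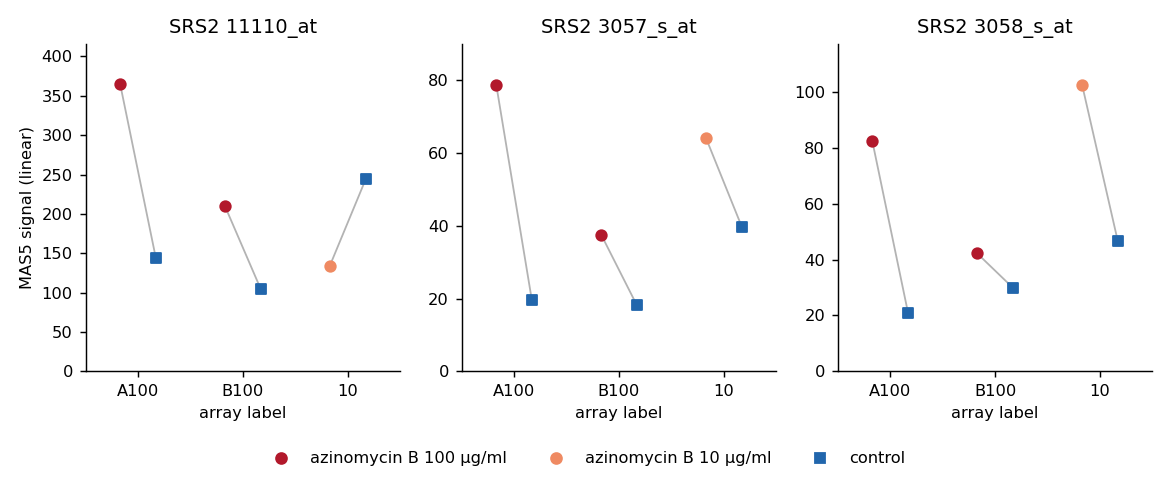
Linear MAS5 signal, starting at 0, of the 3 SRS2 probe sets above the filter, by array label, with circles for treated arrays and squares for controls. The treated array is above its control in the A100 and B100 pairs of all 3, while in the pair labelled 10 it is lower in the first (134.4 against 243.7) and higher in the others (64.1 against 39.8, and 102.5 against 46.6).

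PSO2 encodes a nuclease that yeast needs for the repair of crosslinks between strands and for few other lesions. It had 145.2 and 171.5 on the 100 µg/ml arrays and 102.7 on the 10 µg/ml array, against 150.2, 114.0 and 65 in the controls. The treated B100 array was above every control, and the treated A100 array was between the A100 and B100 controls. The differences within the labels A100, B100 and 10 were -0.04, 0.53 and 0.55. The first of these is smaller in size than the shift of -0.20 from a common median in that pair. The log2 fold change at 100 µg/ml was 0.53 (SE 0.364, limma adjusted p = 0.957) against all 3 controls and 0.24 (SE 0.263, adjusted p = 0.734) against the A100 and B100 controls. The control labelled 10 was at a log2 difference of -0.86 from the mean of the other controls, which is larger in size than any of the 3 treatment differences.

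**Figure D4:**
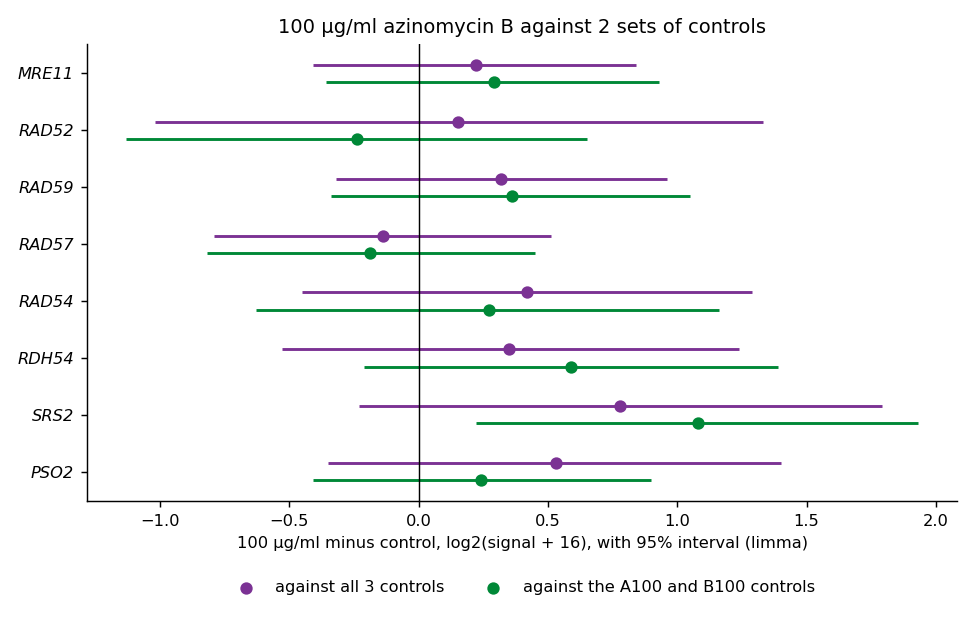
Log2 fold change at 100 µg/ml of the 8 tested genes with its 95% interval from limma, against all 3 controls (purple) and against the A100 and B100 controls (green). Every purple interval includes 0, as does every green one except that of SRS2 (0.22 to 1.93), and RAD52 changes sign between the sets of controls (0.15 and -0.24).

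The level of these genes in untreated cells differed by label about as much as with treatment. The control labelled 10 was higher than the mean of the A100 and B100 controls for SRS2 (0.90), RDH54 (0.71), MRE11 (0.21) and RAD59 (0.11), and lower for RAD52 (-1.19), PSO2 (-0.86), RAD54 (-0.46) and RAD57 (-0.14). This difference is part of the spread that the test against all 3 controls sets the treatment against.

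The members did not follow 1 common pattern over the 6 arrays. Pearson correlations of log2(signal + 16) between the 8 tested members ran from -0.82, for RAD52 and RDH54, to 0.87, for RAD59 and SRS2. RAD52 and PSO2, which were both low in the control labelled 10, were at 0.82, and RAD57 was at -0.81 with SRS2. These values describe 6 arrays that share labels and treatments. The probe set most like that of SRS2 among 5667 others with 1 gene name was that of RNR2, the small subunit of ribonucleotide reductase (r = 0.982, n = 6 arrays). RNR2 had 3907.0 and 2548.3 on the 100 µg/ml arrays and 2052.5 on the 10 µg/ml array, against 2087.3, 1808.5 and 3324.0 in the controls A100, B100 and 10. It was picked for its likeness to SRS2 over these same arrays. Its lower signal at 10 µg/ml than in the control of that label is therefore part of that choice. Next were the putative RNA helicase gene SLH1 (r = 0.981) and OSW2, a gene of the outer spore wall (r = 0.975), and 42 of the 5667 were over 0.9. For PSO2 the most alike were BUD5, which acts in bud site selection (r = 0.993), THI2, an activator of thiamine genes (r = 0.992), and YBR138C (r = 0.991), and 180 of 5669 were over 0.9.

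Other genes of the pathway were taken from a list of single-strand binding, resection, Shu complex, helicase, nuclease and Smc5-Smc6 genes, of which 34 were matched to a probe set and 29 were above the filter. None of the 29 passed in any of the 4 tests. At 100 µg/ml against all 3 controls 19 were positive and 10 negative, with a median of 0.24, where the median of all probe sets was 0.05. In the A100, B100 and 10 pairs the medians were 0.30, 0.13 and 0.24. Of the 29, 14 were higher in all 3 pairs, against 22% of all probe sets, and 1 was lower in all 3, against 12.2%. With arrays at a common median the first count was 7, against 11.2% of all probe sets, and with quantile normalization 9, against 15.8%. Both 100 µg/ml arrays lay above all 3 controls for 9 of the 29, against 12.3% of all probe sets, and below for 1, against 7.58%. The first of these was 5 with arrays at a common median, where 6.97% of all probe sets lay above.

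Among the named genes of that list, the largest differences with both 100 µg/ml arrays beyond every control were at genes of several complexes. NSE5, a subunit of the Smc5-Smc6 complex, had 196.0 and 89.3 on the 100 µg/ml arrays and 115.2 on the 10 µg/ml array, against 82.7, 84.4 and 87.5 (log2 fold change at 100 µg/ml 0.57). That value rests mostly on the treated A100 array, where NSE5 was 2.37 times its control, against 1.06 times in the B100 pair. The log2 difference of NSE5 in the B100 pair, 0.07, is smaller in size than the shift of -0.15 from a common median there. RFA1, the large subunit of replication protein A, had 669.6 and 525.3 on the 100 µg/ml arrays and 683.8 on the 10 µg/ml array, against 339.7, 349.1 and 518.9 (0.57). CSM2, of the Shu complex that assists the loading of the strand exchange protein, had 63.2 and 59.5 on the 100 µg/ml arrays and 55.8 on the 10 µg/ml array, against 41, 24.6 and 46.8 (0.56). All 3 treated arrays were above all 3 controls for each of these genes, and for YEN1 below, which held for 6.04% of all probe sets tested. The 100 µg/ml arrays lay beyond the controls by the choice of genes, so only the 10 µg/ml array was free to differ. Of the 858 probe sets tested with both 100 µg/ml arrays above all 3 controls, 420 had the 10 µg/ml array above them too. MHF1, which encodes a histone-fold protein that binds branched DNA, was at 0.54, and 0.15 against the A100 and B100 controls. YEN1, a nuclease that cuts Holliday junctions, was at 0.41, with 0.49, 0.49 and 0.07 in the A100, B100 and 10 pairs. SLX4, a scaffold for nucleases that cut branched DNA, was the 1 gene below every control on both 100 µg/ml arrays, with 63.4 and 60.5 on the 100 µg/ml arrays and 106.1 on the 10 µg/ml array, against 121.9, 74.5 and 70.6. Its log2 fold change at 100 µg/ml was -0.40, while the 10 µg/ml array was higher than its control by 0.50.

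The other subunits of replication protein A, looked up after the value of RFA1 was seen, were also higher in each pair. RFA2 had 946.2 and 294.4 on the 100 µg/ml arrays and 488.0 on the 10 µg/ml array, against 277.4, 253.8 and 317.1, and RFA3 had 1459.4 and 818.8 on the 100 µg/ml arrays and 1526.3 on the 10 µg/ml array, against 557.7, 790.0 and 923.3. The treated A100 array was 1.71, 1.36 and 0.95 higher (log2) than its control for RFA2, RFA3 and RFA1, and the treated B100 array 0.20, 0.05 and 0.57 higher. A common median moves the B100 pair by -0.15, which is close to the RFA2 difference and larger in size than that of RFA3.

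**Figure D5:**
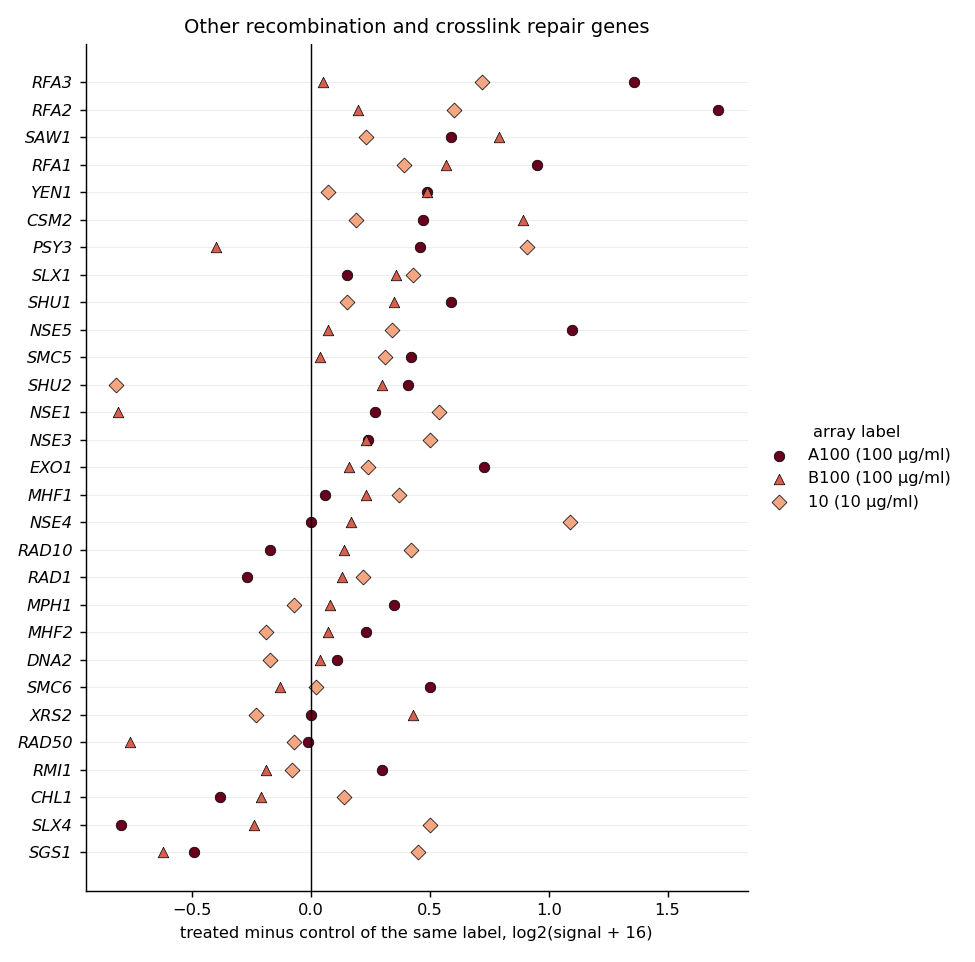
Difference between the treated array and the control of the same label, in log2(signal + 16), for the 29 other pathway genes above the filter, ordered by their median over the labels. Circles are A100, triangles B100 and diamonds the label 10. The replication protein A genes RFA1, RFA2 and RFA3 have all points right of 0, with the A100 points farthest right (0.95, 1.71 and 1.36).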

How the data were processed

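The deposited values are intensity values, 1 linear signal per probe set, made by the authors with MAS5, per the submitters' processing notes; its version and scaling target are not given in the sources used, and detection calls were not analysed here. The table has 0 columns of no sample. Trimmed means (2%) of the arrays lay between 498.44 and 499.73, so no scaling was added. The 60 manufacturer's control probe sets were left out, as were the 25% of the other 9275 with the lowest mean, which left 6956; 5670 of these have 1 gene name, 282 several and 1004 none. Signals were taken as log2(signal + 16). limma 3.58.1 in R 4.3.3 fitted group means to the 6 arrays with a variance trend, two-sided, with Benjamini-Hochberg adjustment over the 6956 probe sets at 0.05. Each dose was set against the controls (the lone 10 µg/ml array assumed to vary like the others), as were both doses together; a last fit gave the difference between doses with 1 control mean for A100 and B100 together and another for 10, a grouping made here by dose that the labels do not state. Tables and figures used Python 3.11.15. The fit was tested on simulated data with independent noise and large changes. That checks the code and does not measure power or error rates on these arrays.

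All 9 members are named. Of the other pathway genes the text names up to 6 with the largest fold change among those with both 100 µg/ml arrays beyond all controls, and the partners of MRE11; for the leading pair of members, the 3 genes most alike by Pearson correlation are named. Members and lists were chosen with earlier results of these data known. Labels pair a treated with a control array, but over the probe sets tested the A100 minus B100 differences of treated and control arrays correlated at r = -0.071, and labels were not used as a block in the tests reported. That check does not cover the label 10, whose arrays correlated at 0.970 with each other and at 0.891 to 0.919 with the others. Alternatives were a common median or quantile normalization, a pseudocount of 1 or 64, a filter at the lowest 50% or none, no variance trend, a threshold of 0.10, the label as a block, other controls and each array left out. Promoter and protein sequences were not used here, and detection limits rest on signal alone. The number of arrays limits the precision.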

Additional observations from a re-analysis of the deposited data

How the results depend on the processing

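No member passed under any alternative run, and the count of probe sets called stayed at 0 except for 10 µg/ml against control, where it was 0 to 4 with each array left out (4 without the control labelled 10). With the label as a replicate block 0 probe sets were called at 100 µg/ml, and the block changed no other call; it took the probe sets at an unadjusted p under 0.05 to 473, 560 and 188 for 100 µg/ml, both doses and 10 µg/ml. RAD52 turned sign at 100 µg/ml with the controls of its own labels and with the replicate block (-0.24 in each), and ranged from -0.28 to 0.59 with an array left out. RAD57 ranged from -0.33 to 0.06 there, and RDH54 from -0.00 to 0.71, lowest without the treated A100 array. For both doses together RAD57 was at -0.10 with quantile normalization and -0.15 with a common median. With an array left out it ranged from -0.14 to 0.19, RAD52 from -0.47 to 0.22 and RAD54 from -0.10 to 0.42. At 10 µg/ml, with the control of the same label or with the block, RAD52 was at 0.26, RAD59 at -0.03, RAD54 at 0.07 and PSO2 at 0.55. RAD59 was at -0.06 with quantile normalization and -0.16 with a common median. With an array left out PSO2 ranged from -0.31 to 0.21 and SRS2 from -0.44 to 0.11. The dose difference of RDH54 (0.02) was -0.02 with a common median and -0.03 with a pseudocount of 64. Members higher in all 3 pairs were 3, but 0 with a common median. Chosen after seeing the data, leaving out a control gave 1 to 4 members with both 100 µg/ml arrays above the controls. The 4 came without the control labelled 10, where 26.1% of all probe sets tested lay above, against 12.3% with all 3 controls. Shares of all probe sets without either of the other controls are not given here. Either of the other tested SRS2 probe sets gave 4 members higher in all 3 pairs, against 22% of all probe sets. The cause of these changes was not tested. Signals under 25 lie within the range of the background sequences, which limits RAD55 and the dim SRS2 probe sets.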

Other observations

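A few further pathway genes, picked after their values were seen, did not pass and are given as values. RMI1, which acts with the helicase SGS1 in undoing joint molecules, followed the label and not the treatment: it had 54.3 and 38.4 on the 100 µg/ml arrays and 221.0 on the 10 µg/ml array, against 41.2, 46.2 and 234.9 in the controls A100, B100 and 10. SGS1 itself was lower than its control in both 100 µg/ml pairs (-0.49 and -0.62) and higher at 10 µg/ml (0.45). SAW1, which brings the RAD1-RAD10 nuclease to annealed strands, had 183.0 and 231.6 on the 100 µg/ml arrays and 224.1 on the 10 µg/ml array, against 115.9, 127.6 and 188.8, higher in all 3 pairs by 0.59, 0.79 and 0.23. NSE4, a subunit of the Smc5-Smc6 complex, was higher at 10 µg/ml (138.7 against 56.5 in its control) and close to its control in the A100 pair (72.9 against 72.8).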
